A study of Mus musculus with 2 samples.

Results

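The genes described here are 7 members of the mouse major histocompatibility complex (MHC) class II presentation pathway, namely Ciita, H2-Aa, H2-Ab1, H2-Eb1, Cd74, H2-DMa and H2-DMb1. They were matched by gene symbol in 2 droplet single-cell RNA libraries and are 7 of the 32285 genes listed there. They were chosen by their UMI levels and co-detection in earlier results of the same 2 libraries, so the levels below are a description and not independent evidence. Both libraries came from mouse brain grafted with KR158 cells, a mouse glioblastoma line, and the series addressed how Plexin-B2, a semaphorin receptor, acts in tumour-associated myeloid cells. The cKO host was Cx3cr1 CreER/+ Plxnb2 fl/fl and the control host was Cx3cr1 CreER/+ Plxnb2 fl/+. Both hosts carried a tamoxifen-dependent Cre at 1 Cx3cr1 allele, and the control, which its title calls WT, was heterozygous for the floxed Plxnb2 allele. Tamoxifen at 100 mg/kg began 3 days before the intracranial injection and was repeated on alternate days, and tissue within about 1 mm of the injection site was taken after 8 weeks. Cx3cr1 is active in microglia and in part of the other myeloid cells, so the Cre is not restricted to microglia. There was 1 library per genotype. No difference below has a replicate check, no test between genotypes was possible, and genotype, animal and preparation cannot be told apart.

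MHC class II molecules carry peptides from the endocytic pathway to the cell surface, where CD4+ T cells read them. H2-Aa and H2-Ab1 encode the paired chains of I-A, and H2-Eb1 encodes the beta chain of I-E. Both hosts had the C57BL/6 background, in which the alpha chain of I-E is not made, so H2-Eb1 transcripts there do not give surface I-E. Cd74 encodes the invariant chain, which fills the peptide groove until proteases such as cathepsin S degrade it, and H2-DMa and H2-DMb1 encode the exchange factor that removes its last fragment. Ciita encodes a transactivator that binds no DNA itself and is recruited to class II promoters by factors on the X and Y boxes. B cells, dendritic cells and some macrophages at the brain's borders make class II constantly, microglia and vascular cells make little, and interferon gamma induces Ciita in many cell types.

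All 7 are protein-coding genes, with coordinates from GENCODE vM21 on mm10. Chromosome 17 holds H2-DMa (34119541 to 34139101), H2-DMb1 (34153072 to 34160230), H2-Ab1 (34257689 to 34269419), H2-Aa (34282744 to 34287823, minus strand) and H2-Eb1 (34305867 to 34316674). Ciita lies on chromosome 16 (10480059 to 10528418).

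The RefSeq promoter table for GRCm38.p6, which gives 250 bases before and 50 after each start, held H2-Aa, H2-Eb1, H2-DMb1 and H2-DMa among the members and H2-Ob, H2-Oa, H2-DMb2 and H2-Eb2 among the other class II genes. In 4 of them an X-box-like run, CTNGNAAC, stood on the gene's own strand 25 to 28 bases before ATTGG, the inverted CCAAT of a Y box. They are shown because these boxes are the sites through which Ciita acts, with both runs in capitals and 5′ to 3′ on the gene's strand.
H2-Aa, chr17:34287847-34287927, minus strand: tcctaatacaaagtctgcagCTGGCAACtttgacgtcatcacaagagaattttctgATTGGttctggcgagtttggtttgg
H2-Eb1, chr17:34305753-34305832, plus strand: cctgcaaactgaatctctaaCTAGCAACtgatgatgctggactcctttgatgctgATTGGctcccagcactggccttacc
H2-DMb1, chr17:34153074-34153154, plus strand: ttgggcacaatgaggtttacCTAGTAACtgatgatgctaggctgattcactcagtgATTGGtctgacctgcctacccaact
H2-Ob, chr17:34238795-34238872, plus strand: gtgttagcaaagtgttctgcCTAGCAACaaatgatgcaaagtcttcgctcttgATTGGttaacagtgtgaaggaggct
The run CTNGNAAC was written after these promoters had been read, so its presence in them is no finding. The ordered pair, with 10 to 40 bases between its parts, occurred on either strand of 122 of 32851 promoters of the same length (0.371%), CTNGNAAC alone in 13.2% and ATTGG alone in 37.4%. The promoters of H2-DMa (2 starts), H2-DMb2, H2-Oa and H2-Eb2 held no such pair of letters in this window.

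The cKO matrix held 63785513 UMIs (distinct tagged RNA molecules), of which 20.6% lay in barcodes under 500 UMIs, and the control matrix held 64756949 UMIs in barcodes of at least 500. Filtering kept 5206 cKO and 7645 control cells, which shared 8 barcodes. Levels are given as CPM, the gene's UMIs per 1000000 UMIs summed over the cells of a class in 1 library, with a 95% interval that covers counting error only. Plxnb2 stood at 42.3 CPM in cKO and 214 CPM in control microglia-like cells, and at 36.3 and 110 CPM in border macrophage-like cells. Reads of this kit come from the 3′ end of a transcript and need not cover the floxed exons, so these values do not measure recombination. Classes carry the suffix -like because they rest on marker genes of clusters. Microglia-like cells were clusters 0, 6 and 12, with all 10 microglial markers detected in each, border macrophage-like cells were cluster 17 (10 of 10 markers), and mural-like cells were clusters 15 and 21 (9 of 12 in each).

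The invariant chain gene Cd74 lies apart from the others, on chromosome 18 (60803848 to 60812652 on mm10). Class II UMIs were concentrated in few cells. The 7 genes together had 11170 UMIs in kept cKO cells and 14526 in kept control cells. At least 2 of the 4 classical genes, a term used here for H2-Aa, H2-Ab1, H2-Eb1 and Cd74, were detected in 132 of 5206 cKO cells (2.54%) and 128 of 7645 control cells (1.67%). These are called class II-positive below. After every cell was thinned to 1000 UMIs the shares were 1.56% in cKO and 1.03% in control. In oligodendrocyte-like cells, which should lack class II, 0 of 559 cKO cells, which allows up to 0.537%, and 1 of 938 control cells (0.107%) were positive.

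The summed level of the 7 genes spanned over 3 orders of magnitude between classes. Unnamed cluster 26, in which neutrophil, monocyte and dendritic cell genes lead together, stood highest, at 26112 CPM in cKO (21 cells) and 32837 CPM in control (26 cells). B cell-like cells followed at 14473 CPM in cKO (23 cells) and 19116 CPM in control (14 cells), and border macrophage-like cells at 4997 CPM (65 cells) and 9558 CPM (113 cells). Microglia-like cells had 519 CPM in cKO (896 cells) and 559 CPM in control (1772 cells). Mural-like cells, the pericytes and smooth muscle of vessels, were the class whose place in the order differed most between libraries, with 877 CPM in cKO, above microglia, and 18.2 CPM in control, the lowest value of that library among classes of at least 50 cells.

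The classes below these lay close together. In cKO, T cell-like (80.3 CPM, 53.4 to 116), ependymal-like (49.0, 41.0 to 58.0) and endothelial-like cells (48.9, 45.6 to 52.5) were neighbours. The ependymal-like interval overlapped both of the others, while those of T cell-like and endothelial-like cells did not overlap each other. Astrocyte-like (23.0) and neuroblast-like cells (16.7, 10.46 to 25.3) also overlapped, and oligodendrocyte-like cells were lowest (7.49, 5.22 to 10.4). In control, the intervals of T cell-like (35.5), ependymal-like (26.6), astrocyte-like (25.6), neuroblast-like (23.7), oligodendrocyte-like (23.5), endothelial-like (20.1, 17.3 to 23.2) and mural-like cells (18.2, 9.41 to 31.8) all overlapped. Choroid plexus-like cells had 92.3 CPM in control (358 cells), of which 1 cell held 43.9%, and only 4 such cells were kept in cKO. Fibroblast-like cells had no class II UMI in 15 cKO cells and 36 UMIs in 20 control cells, 35 of them in 1 cell.

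**Figure D1:**
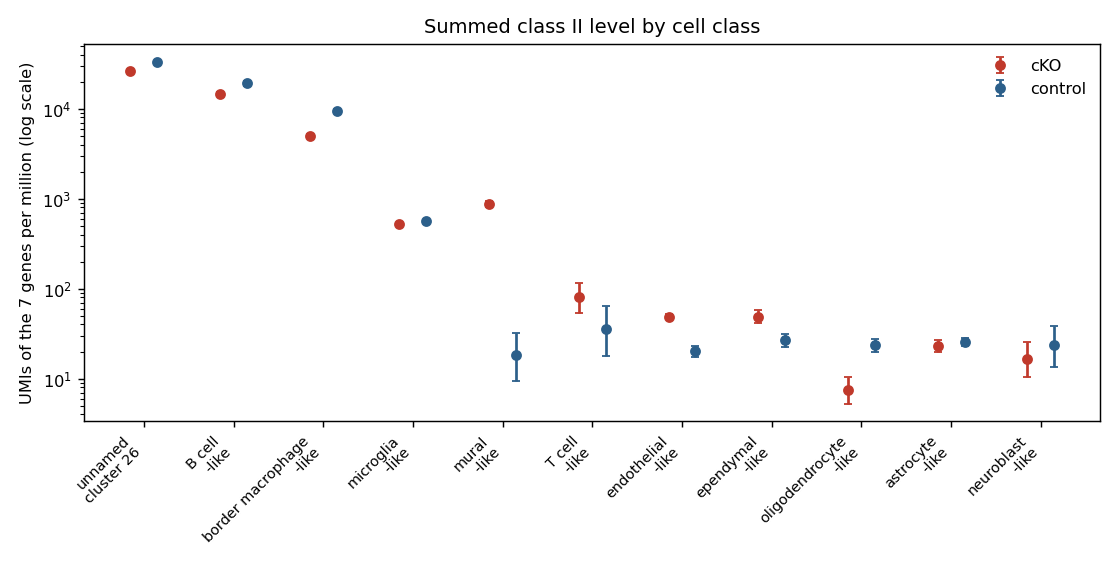
Summed level of the 7 class II genes in each class, in CPM on a log scale, with cKO in red and control in blue and bars for the 95% interval of counting error. The mural-like pair stands apart, with 877 CPM in cKO and 18.2 CPM in control, while the 3 highest classes are lower in cKO.

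Ciita, the transactivator gene, was detected in 23 cKO and 29 control cells of all classes. Of these, 16 cKO and 24 control cells were class II-positive. In B cell-like cells it was found in 9 of 23 cKO and 5 of 14 control cells, with 105 and 136 CPM. In border macrophage-like cells it had 2 UMIs in cKO and 8 in control, and all cells that held one, 2 of 2 and 8 of 8, were class II-positive. In microglia-like cells it had 1 UMI in cKO and 7 in control, in mural-like cells 1 and 0, and in endothelial-like cells 2 and 0. A count of 0 in control mural-like cells allows up to 4.55 CPM. In each of these 4 classes the interval of its ratio included 0.

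Among B cell-like cells, all 4 classical genes were detected together in 22 of 23 cKO and 13 of 14 control cells. All 7 members were detected together in 1 of 23 and 1 of 14. The UMIs were spread over the cells, with 9 of 23 holding 50 percent in cKO and 6 of 14 in control, and the richest cell had 128 and 66 UMIs. H2-DMa was found in 15 of 23 cKO and 8 of 14 control cells and H2-DMb1 in 8 of 23 and 2 of 14. The class supplied 12.3% of the library's class II UMIs in cKO and 4.85% in control. With 23 and 14 cells the class was under the minimum of 50 cells for a ratio.

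Cluster 26 supplied 32.6% of all class II UMIs in cKO from 0.403% of the library's cells, and 28.8% in control from 0.340%. In this cluster 8 of 21 cKO and 11 of 26 control cells were class II-positive. In those cells the dendritic cell markers (Flt3, Zbtb46, Cd209a, Itgax and others) summed to 1432 CPM in cKO and 1900 CPM in control, against 30.5 and 260 CPM in the cluster's other cells. Neutrophil markers had 0 UMIs in the positive cKO cells and 2 in the positive control cells, against 3325 and 6046 UMIs in the others. The cluster was left unnamed because its leading genes belong to several classes.

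**Figure D2:**
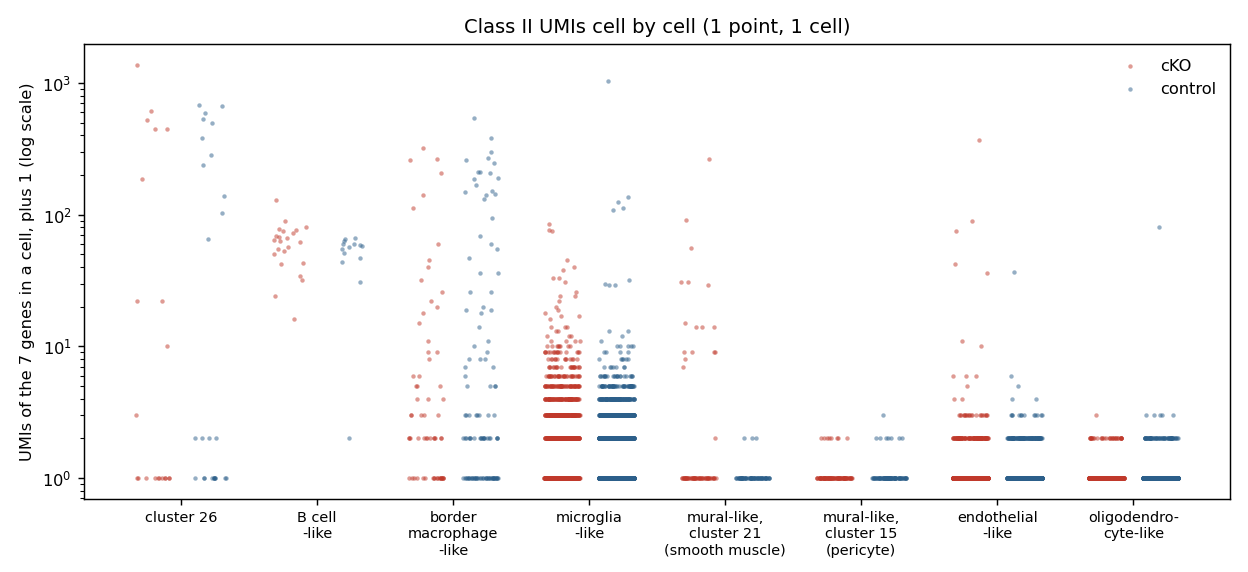
UMIs of the 7 class II genes in each cell plus 1, on a log scale, with 1 point per cell, cKO in red left of control in blue. In cluster 21 of the mural-like class 17 of 72 cKO cells have a UMI and the highest has 266, while 3 of 73 control cells have 1 each. A single control microglia-like cell has 1029 and a single cKO endothelial-like cell 367.

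Border macrophage-like cells had a lower summed class II level in cKO. Border macrophages live in the meninges, perivascular spaces and choroid plexus. Cd74 stood at 2006 CPM in cKO (1856 to 2164) and 3915 CPM in control (3739 to 4097), H2-Aa at 897 and 1686 CPM, H2-Ab1 at 943 and 1439 CPM, and H2-Eb1 at 915 and 2140 CPM. The log2 ratios of cKO over control were -0.96 for Cd74 (-1.09 to -0.84), -0.91 for H2-Aa (-1.11 to -0.72), -0.61 for H2-Ab1 (-0.81 to -0.41) and -1.23 for H2-Eb1 (-1.42 to -1.04). H2-DMa was at -0.97 (-1.56 to -0.41), from 36 cKO and 101 control UMIs, and the interval of H2-DMb1 (-0.29, -0.89 to 0.29) included 0. Of the 6 members with at least 30 UMIs over both libraries, 1 was at least 2-fold lower in cKO, H2-Eb1, beside 3.54% of 3951 genes in this class, and 0 of 6 were at least 2-fold higher, beside 2.63%. The sum had a log2 ratio of -0.94 (-1.02 to -0.85).

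The share of border macrophage-like cells that were class II-positive was nearly equal. It was 25 of 65 in cKO (38.5%, 26.7 to 51.4) and 42 of 113 in control (37.2%, 28.3 to 46.8), and 27.7% and 29.2% after thinning. All 4 classical genes were found in 13 of 65 cKO and 32 of 113 control cells. The highest cell had 318 class II UMIs in cKO and 545 in control, 3 cells held 50 percent of the class's UMIs in cKO, and 8 did in control. The 2 libraries overlapped across the range of single cells. In both libraries the 10 border macrophage markers were lower in the positive cells, at 11858 CPM against 15358 CPM in the other cKO cells, and at 9699 against 17443 CPM in control. The monocyte or macrophage markers, mainly Lyz2, ran the other way (10615 against 6910 CPM in cKO, 9487 against 7662 CPM in control). At Leiden resolution 0.5 the class took in 86 cKO and 139 control cells, with 5299 and 8704 class II UMIs. These counts equal those of the class at the main settings and of unnamed cluster 26 added together. The class had 65 cKO and 113 control cells, with 1654 and 4524 class II UMIs. Cluster 26 had 21 and 26 cells, with 3645 and 4180 class II UMIs. The ratio of the sum, -0.36 (-0.41 to -0.31), is thus one of border macrophage-like cells pooled with that cluster.

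**Figure D3:**
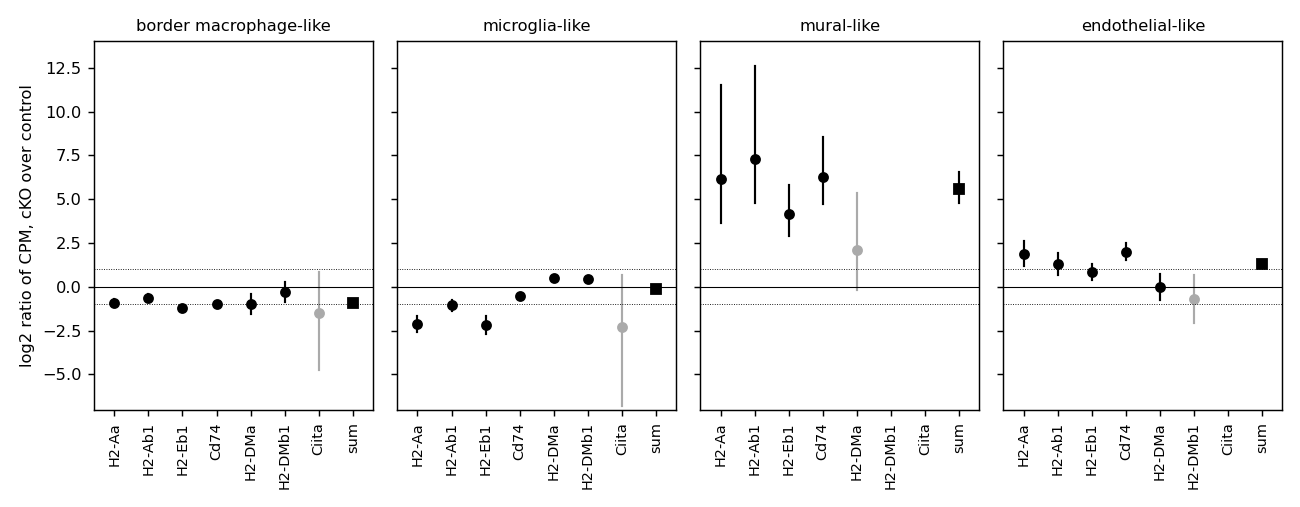
Log2 ratio of CPM, cKO over control, for each gene and for the sum (square) in 4 classes, with lines for the 95% interval of counting error, dotted lines at 2-fold, and grey where both libraries together had under 30 UMIs. Genes with 0 UMIs in control have no point, and the lower end of the microglia-like Ciita interval lies off the axis. All points of the border macrophage-like class lie below 0 and all drawn points of the mural-like class above it.

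Microglia-like cells divided the members. The 2 exchange factor genes were widespread. H2-DMa was detected in 489 of 896 cKO cells (54.6%) and 711 of 1772 control cells (40.1%), at 251 CPM (236 to 266) and 179 CPM (169 to 190). H2-DMb1 was detected in 328 cKO cells (36.6%) and 438 control cells (24.7%), at 112 and 83.0 CPM. Their log2 ratios were 0.49 (0.37 to 0.61) and 0.44 (0.26 to 0.61), under 2-fold. After thinning, H2-DMa was found in 19.6% of cKO and 15.3% of control cells, and H2-DMb1 in 10.6% and 8.18%. In oligodendrocyte-like cells, which should lack them, H2-DMa was found in 0.358% of thinned cKO and 0.746% of thinned control cells. The median depth was 7585 (cKO) and 6393 (control) UMIs there, and 4380.5 (cKO) and 3394 (control) UMIs in microglia-like cells. Most microglia-like cells with either exchange factor gene, 463 of 580 in cKO and 799 of 931 in control, had none of the 4 classical genes.

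The classical genes sat in few microglia-like cells. H2-Aa was detected in 23 cKO cells (50 UMIs, 11.0 CPM) and 19 control cells (301 UMIs, 47.0 CPM), and H2-Eb1 in 13 cKO cells (39 UMIs, 8.59 CPM) and 31 control cells (246 UMIs, 38.4 CPM). H2-Ab1 had 108 and 318 UMIs (23.8 and 49.7 CPM) and Cd74 had 511 and 1027 UMIs (113 and 160 CPM). Of 6 members measured, 3 were at least 2-fold lower in cKO, beside 2.95% of 11303 genes, and 0 were at least 2-fold higher, beside 2.01%. These were H2-Aa (log2 ratio -2.09), H2-Eb1 (-2.16) and H2-Ab1 (-1.06), with Cd74 at -0.51.

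These ratios rested largely on 1 control cell. It had 17691 UMIs and 9 of 10 microglial markers, and it held 1029 class II UMIs, 28.8% of the class, among them 199 of the 301 H2-Aa UMIs. Without the richest cell of each library H2-Aa was at -0.72 (-1.26 to -0.19), H2-Ab1 at -0.11 (-0.49 to 0.26), H2-Eb1 at -1.37 (-2.06 to -0.74) and Cd74 at 0.31 (0.13 to 0.49), while H2-DMa stayed at 0.49 and H2-DMb1 was at 0.45. The sum had a log2 ratio of -0.11 (-0.18 to -0.03) with that cell and 0.33 (0.25 to 0.41) without it, so leaving out these cells turned its direction. Class II-positive cells numbered 30 of 896 in cKO (3.35%) and 28 of 1772 in control (1.58%), or 1.12% and 0.508% after thinning. The positive cKO cells also had a higher summed level of 18 interferon gamma-induced genes than the other cKO cells, 3233 against 1182 CPM, where control cells had 1098 against 959 CPM. Of the 838 UMIs behind the first value, 380 were Cxcl9 in 3 cells. Lyz2, a macrophage lysozyme gene, was higher in the positive cells of both libraries, at 1100 against 452 CPM in cKO and 4695 against 424 CPM in control. Depth differed too, with a median of 7030.5 UMIs in positive and 4305 in other cKO cells, and its part in these shares was not tested beyond the thinning.

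Mural-like cells had the highest ratios of any class. H2-Ab1 had 165 UMIs in cKO (239 CPM, 204 to 278) and 1 in control (1.52 CPM), Cd74 had 245 (355 CPM) and 3 (4.55 CPM), H2-Eb1 had 93 (135 CPM) and 5 (7.59 CPM), and H2-Aa had 75 (109 CPM) and 1 (1.52 CPM). The log2 ratios were 7.30 for H2-Ab1 (4.80 to 12.61), 6.28 for Cd74 (4.72 to 8.57), 6.16 for H2-Aa (3.64 to 11.48) and 4.15 for H2-Eb1 (2.88 to 5.81). All 4 of the 4 members with at least 30 UMIs were at least 2-fold higher, beside 2.87% of 6276 genes, and 0 were lower, beside 1.45%. H2-DMb1 had 18 UMIs in cKO and 0 in control, which allows up to 4.55 CPM there, and H2-DMa had 9 and 2. The sum had a log2 ratio of 5.59 (4.78 to 6.55).

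Every class II-positive mural-like cell in cKO lay in cluster 21, led by the smooth muscle genes Acta2, Tagln and Myh11. There 16 of 72 cKO cells (22.2%) and 0 of 73 control cells were positive, which for control allows a share of up to 4.11%. After thinning the cKO share was 20.8%. In cluster 15, led by the pericyte genes Atp13a5, Abcc9 and Kcnj8, 0 of 100 cKO and 1 of 93 control cells were positive, and the sum was at 25.8 CPM (11.2 to 50.9) in cKO and 39.1 CPM (17.9 to 74.1) in control. In cluster 21 the sum was 1569 CPM (1446 to 1700) in cKO and 7.0 CPM (1.44 to 20.5) in control. The UMIs were uneven within the 16 cells, from 6 to 266, with 1 cell holding 43.9% of the class's and the next 14.9%. Without the richest cell of each library the sum of the class stayed high, at 5.03 (4.13 to 6.10).

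The 16 positive smooth-muscle cells also carried transcripts of other cell types. Smooth muscle markers were at 20810 CPM in them, against 37625 CPM in the other 56 cKO cells and 41677 CPM in control cells of the cluster, and at least 3 such markers were found in all 16. Endothelial markers were at 5307 CPM against 1014 CPM in the other cKO cells and 65.3 CPM in control, with Cldn5 in 15 of 16, 8 of 56 and 1 of 73 cells. Oligodendrocyte markers were at 3283 CPM against 300.3 and 411 CPM. Astrocyte markers were at 2480 CPM against 1128 and 1321 CPM. The 14 leukocyte genes summed to 1258 CPM against 417 and 373 CPM, with Laptm5 in 10, Ptprc in 6 and Tyrobp in 6 of 16 cells, and with Mrc1, Pf4, Cx3cr1 and Cd3e at 0. Dendritic cell markers were at 255 CPM against 9.19 and 16.3 CPM, monocyte or macrophage markers at 821 against 110 and 315 CPM, and B cell markers at 0. Border macrophage markers were at 54.7 CPM, against 178 and 175 CPM.

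The following genes from outside the lists were picked after their values were seen. Cd52, a lymphoid and myeloid surface antigen gene, was found in 13 of the 16 positive cells and 0 of the other 56, and at 2.33 CPM in control cells of the cluster. Spp1 was found in 12 of 16 and 0 of 56, and the myelin gene Mal in 16 of 16 and 6 of 56. Ptgds was found in 16 of 16 and 14 of 56, at 3119 and 55.2 CPM. From the interferon gamma-induced list, the proteasome gene Psmb8 had 28 UMIs in the 16 cells and 6 in the other 56. Irf8, also on that list, had 14 and 1. Both were picked because they were high and do not stand for the whole list. The positive cells had a median of 2787 UMIs (1551 to 7451), against 5685 in the other cKO cells and 5763 in control. The doublet caller had left them in at the main settings. Mitochondrial UMIs made up a median of 6.47% in them, 7.14% in the other cKO cells and 6.68% in control. Without cells that held UMIs of at least 2 leukocyte genes the ratio of the mural-like sum was 2.40 (1.15 to 3.94), from 39 cKO and 6 control UMIs. Without cells with at least 3 endothelial markers it was 1.82 (0.86 to 2.89), from 39 and 12 UMIs, an alternative chosen after the data were seen. With a floor of 2000 UMIs or a mitochondrial limit of 5% the cells were clustered anew. With the floor the ratio was 2.74, from 72 and 11 UMIs, and 13 of the 16 positive cells lay above it. Of the 16, 3 were still mural-like, 8 had moved to endothelial-like clusters and 5 were no longer kept. Among the 5 were cells above the floor, for which the doublet call, made anew, was the only filter that had changed. With the 5% limit the ratio was -0.28 (-2.84 to 2.49), from 4 and 3 UMIs. All 4 positive cells within the limit had moved to endothelial-like clusters. The part of these other transcripts in the class II level was not tested.

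**Figure D4:**
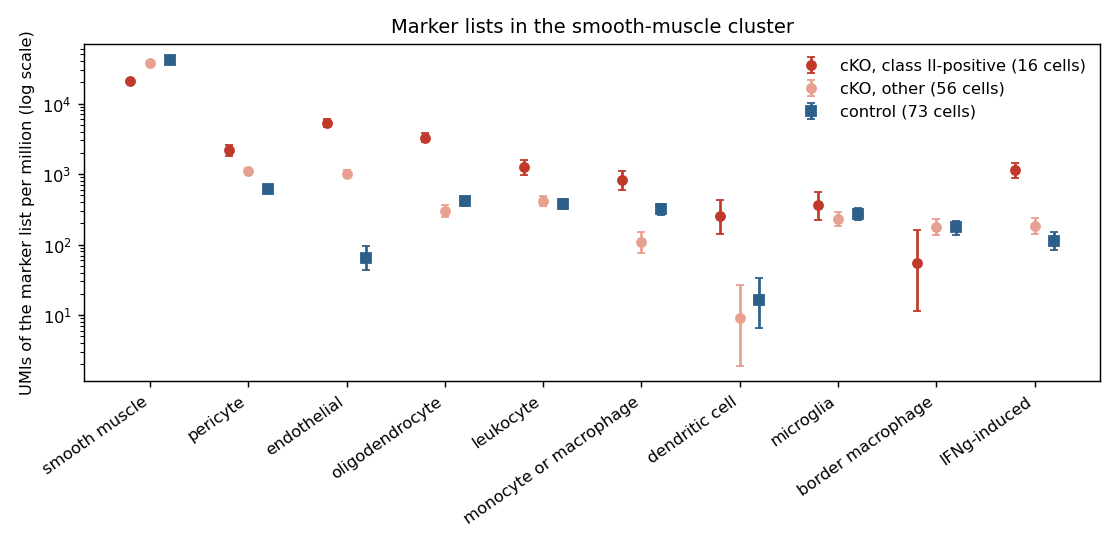
Summed level of marker lists, in CPM on a log scale, in cluster 21, for the 16 class II-positive cKO cells (dark red), the other 56 cKO cells (light red) and the 73 control cells (blue), with 95% intervals of counting error. The positive cells are lower in smooth muscle markers and higher in endothelial, oligodendrocyte, leukocyte and dendritic cell markers.

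Endothelial-like cells, which line the vessels, had low levels of every member. They were clusters 3, 7, 14, 18 and 23, with all 10 endothelial markers detected in each. Cluster 7 (323 cKO and 154 control cells) had the mural markers Rgs5 and Abcc9 among its leading genes, beside the endothelial markers Flt1, Ptprb, Ly6c1 and Kdr. Cluster 18 (81 cKO and 74 control cells) was led by the red cell genes Hbb-bt, Hbb-bs, Hba-a1, Hba-a2 and Alas2. It held 55 class II UMIs in cKO and 18 in control. Cd74 stood at 18.7 CPM in cKO (307 UMIs) and 4.67 CPM in control (43 UMIs), H2-Aa at 7.93 and 2.17 CPM, H2-Ab1 at 7.63 and 3.15 CPM and H2-Eb1 at 11.2 and 6.30 CPM. Of 5 members measured, 3 were at least 2-fold higher in cKO, beside 1.13% of 12406 genes, and 0 were at least 2-fold lower, beside 1.93%. These were Cd74 (log2 ratio 2.004, 1.54 to 2.50), H2-Aa (1.87, 1.18 to 2.63) and H2-Ab1 (1.28, 0.68 to 1.91), while H2-Eb1 was at 0.83 (0.39 to 1.28) and H2-DMa at -0.02 (-0.76 to 0.75). The share of cells with a UMI did not follow the level, since H2-Aa was found in 22 of 1292 cKO (1.70%) and 15 of 921 control cells (1.63%) and Cd74 in 31 (2.40%) and 28 (3.04%).

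A few cells held the endothelial UMIs. A single cKO cell had 367 of the 802 class II UMIs (45.8%), with 31427 UMIs in all, 10 of 10 endothelial markers and 12 of 14 leukocyte genes, and the next cells had 88 and 74. Of the 6 B cell markers, 1, 5 and 4 were detected in these 3 cells, and 1, 0 and 0 in the 3 richest control cells. Of the 12 mural markers, 5, 9 and 8 were detected in these cKO cells, and 2, 0 and 0 in those control cells. The cKO cells with 88 and 74 class II UMIs were in cluster 7 and the 3 control cells were not. A control cell of cluster 7 with 2 class II UMIs had 11 mural markers. The log2 ratio of the class sum was 1.28 (1.05 to 1.52), and 1.27 (1.03 to 1.52) without cluster 18, an alternative chosen after the data were seen. Without the richest cell of each library it was 0.72 (0.44 to 0.99), with H2-Aa at 1.55 and Cd74 at 1.49. With every cell thinned it was 0.079 (-0.66 to 0.84). Without cells that held at least 2 leukocyte genes it was -0.60 (-1.31 to 0.16). In the 15 class II-positive cKO cells the leukocyte genes summed to 560 CPM, against 240 CPM in the other cKO cells, and in the 7 positive control cells to 496 against 406 CPM. The B cell markers summed to 257 against 4.26 CPM in cKO and to 18.4 against 4.51 CPM in control. The part of these transcripts in the level was not tested. H2-Eb1 was the member found in the most endothelial-like cells, 64 in cKO (4.95%) and 46 in control (4.99%), or 0.464% and 0.760% after thinning. In oligodendrocyte-like cells it was found in 0.537% and 1.28%, or 0% and 0.426% after thinning. The median depth of endothelial-like cells was 9557.5 UMIs in cKO and 7545 in control.

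In ependymal-like cells, which line the ventricles, H2-Ab1 was found in 23 of 111 cKO cells (20.7%) and 31 of 239 control cells (12.97%), H2-DMa in 20 (18.0%) and 37 (15.5%), and H2-DMb1 in 7 and 20, where H2-Aa was found in 5 and 5 and Cd74 in 4 and 15. H2-Ab1 stood at 21.2 CPM in cKO and 7.71 CPM in control, a log2 ratio of 1.46 (0.86 to 2.07), with 19 of the 58 cKO UMIs in 1 cell. These cells are deep, with medians of 14781 and 17493 UMIs, and after thinning H2-Ab1 was found in 1.80% and 0% and H2-DMa in 0% and 1.26%. Cd74 stood at 6.94 CPM in cKO and 2.94 CPM in control, a log2 ratio of 1.24 (0.20 to 2.30), with 16 of the 19 cKO UMIs in 1 cell. Of 3 members measured 2 were at least 2-fold higher, H2-Ab1 and Cd74, beside 1.54% of 11945 genes, and 0 were at least 2-fold lower, beside 0.913%. In control choroid plexus-like cells H2-DMb1 was found in 54 of 358 cells (15.1%) and H2-DMa in 15 (4.19%), whereas H2-DMa was the more widespread of the 2 in control microglia-like cells.

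Classes that should lack class II give its background. In oligodendrocyte-like cells the 7 genes had 35 UMIs in cKO and 154 in control, of which 1 control cell held 79. Of 4 members measured there 3 were at least 2-fold lower in cKO, beside 2.45% of 10495 genes, namely H2-Aa, H2-Eb1 and Cd74, and 0 of 4 were at least 2-fold higher, beside 0.429%. In neuroblast-like cells the sum was 22 UMIs in 243 cKO cells and 16 in 142 control cells. Astrocyte-like cells had 23.0 and 25.6 CPM, a log2 ratio of -0.15 (-0.42 to 0.11), with 0 of 6 members at least 2-fold higher (background 1.02%) or lower (2.28%). T cell-like cells had 28 UMIs in cKO and 11 in control. No member reached 30 UMIs in the T cell-like class, where 3.64% of 2718 genes were at least 2-fold higher and 2.28% lower, or in the neuroblast-like class, where 1.74% of 7116 genes were at least 2-fold higher and 1.42% lower.

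Other genes of the pathway were followed in the 4 main classes as a list chosen with these results known, and 2-fold is again the bound. Of the 4 genes of the processing step, Ctss (cathepsin S), Lgmn, Ctsl and Ifi30, 0 passed in either direction in any of the 4 classes. In microglia-like cells Ctss stood at 5775 CPM in cKO and 5251 CPM in control. The promoter-bound partners of Ciita are Rfx5, Rfxap, Rfxank, Creb1 and the 3 Nfy genes. Of these, 7 were measured in microglia-like and in endothelial-like cells, 4 in mural-like and 2 in border macrophage-like cells, and 0 passed. Over all genes tested in the 4 classes, 1.13 to 2.87% were at least 2-fold higher and 1.45 to 3.54% lower. Both counts of 0 lie near those shares and are no result about these lists. Of the co-stimulation genes, Cd80 was just past 2-fold in microglia-like cells (18.5 and 9.22 CPM, log2 ratio 1.00, 0.51 to 1.51) and higher in endothelial-like cells (2.14 and 0.978 CPM, 1.13). Cd86 was at -0.05 in microglia-like cells. H2-Oa and H2-Ob, which encode the modulator of the exchange factor, were at 0.25 and -0.30 in microglia-like cells, and H2-DMb2 at 0.93. In endothelial-like cells H2-Ob was at least 2-fold lower, from 14 cKO and 17 control UMIs.

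Interferon gamma is the main inducer of Ciita outside the constant producers. The receptor genes Ifngr1 and Ifngr2 stayed within 2-fold in all 4 classes. Of 18 interferon gamma-induced genes, 7 of 17 measured were at least 2-fold higher in microglia-like cells, with a median log2 ratio of 0.86 beside -0.05 for all genes. Cxcl9 is among the 7 and rests on 4 cKO cells and 1 control cell. In mural-like cells 2 of 3 were higher (Iigp1 and Psmb8, median 1.03 beside 0.06), in endothelial-like cells 2 of 18 (Cxcl9 and Cxcl10, 0.41 beside 0.02), and in border macrophage-like cells 0 of 7, with Iigp1 just past 2-fold lower (-0.17 beside 0.05). Outside the 4 main classes, 10 of 15 were higher in astrocyte-like cells (median 1.16 beside 0.012), where the class II sum was at -0.15. That class includes cluster 27 (40 cKO and 6 control cells), whose leading genes include Cxcl10 and Iigp1 of this list. The part of cluster 27 in the 10 was not tested. In ependymal-like cells 13 of 14 were higher and 1, Irf8, lower (1.43 beside 0.025). Over all genes tested, 2.01% were at least 2-fold higher in microglia-like, 2.87% in mural-like and 1.13% in endothelial-like cells. In border macrophage-like cells 2.63% were higher and 3.54% lower. In astrocyte-like cells 1.02% were higher, and in ependymal-like cells 1.54% were higher and 0.913% lower. The class I transactivator gene Nlrc5, a relative of Ciita, was at 9.69 and 2.81 CPM in microglia-like cells (1.79, 0.96 to 2.66).

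The genes whose level over classes was most like the class II sum were found by Pearson correlation of log2(CPM + 1) over 19 class-by-library values from 10 classes, which share libraries and depth. Among 15048 genes the highest were Ifi207 (0.93), Epor (0.91), Ccl24 (0.91), Cd300ld (0.91), Mctp1 (0.90), Wdfy4 (0.89), Rnase6 (0.89) and Lyz2 (0.89). Ifi207 stood at 372 CPM in cKO and 279 CPM in control border macrophage-like cells, at 12.6 and 3.44 CPM in microglia-like cells and at 5.79 CPM in cKO mural-like cells with 0 UMIs in control. Among the 10 classes compared, which leave out B cell-like cells and cluster 26, border macrophage-like cells had the highest value of both Ifi207 and the class II sum.

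**Figure D5:**
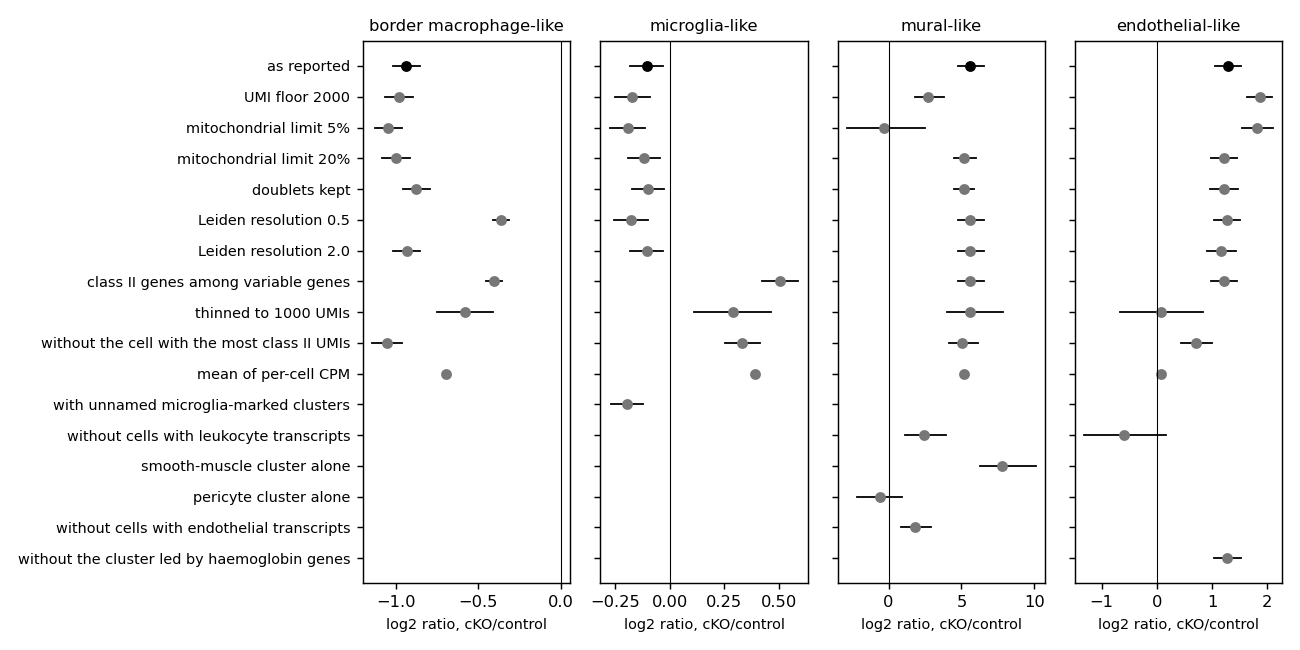
Log2 ratio of the summed class II level, cKO over control, in 4 classes under each processing alternative, with lines for the 95% interval of counting error and a separate horizontal scale per class. Border macrophage-like values stay below 0, from -1.05 to -0.36, while each of the other 3 classes has values on both sides of 0. The value of -0.36, at Leiden resolution 0.5, belongs to a class with the cell and UMI counts of cluster 26 added. The value of -0.41, with class II genes among the variable genes, also belongs to a larger class, of 83 cKO and 142 control cells.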

How the data were processed

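Single cells from papain-dissociated brain were run on the 10x Genomics 3′ platform, per the labels' protocols. The values deposited for each barcode are raw UMI counts of every gene. Cell Ranger 7.1.0 and mm10 are named in the submitters' processing notes. The authors deposited an unfiltered cKO matrix (2377349 barcodes) and a control matrix that starts at 500 UMIs.

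Barcodes with at least 1000 UMIs, 500 genes and at most 10% mitochondrial UMIs were kept, and Scrublet doublets (expected rate 6%) were removed (3.56% of cKO and 5.24% of control barcodes). Cells were clustered with scanpy 1.11.5 and leidenalg 0.10.2 on 2000 variable genes, class II genes left out, 30 principal components, 15 neighbours and resolution 1.0. Of 32 clusters, 27 were named from 19 marker sets, where at least 3 markers were detected in 10% of cells and 2-fold higher. A cluster with 75% of the markers of a second class stayed unnamed.

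Raw counts were summed per class and library. Intervals are exact Poisson for levels, Clopper-Pearson for shares and conditional Clopper-Pearson for ratios (scipy 1.17.1), all at 95% and for counting error only, with 3 counts as the floor of a 0. Ratios were made for classes of at least 50 cells in both libraries, and the count of genes past 2-fold among genes with at least 30 UMIs over both. Shares were repeated with cells thinned to 1000 UMIs. The code was tested on simulated counts. The text names the 7 members, fixed pathway lists and the 8 genes most alike. Members, lists and marker sets were chosen with earlier results of these data known. Alternatives were other cell filters, doublets kept, other resolutions, class II genes among the variable genes, thinning, per-cell means, and leaving out the richest cell or cells with leukocyte transcripts. 3 mural alternatives and 1 endothelial one, without the cluster led by haemoglobin genes, were added after the data were seen.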

Additional observations from a re-analysis of the deposited data

Results flagged for a closer look

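The summed class II level differed in direction between classes, with a log2 ratio of cKO over control of -0.94 in border macrophage-like cells, 5.59 in mural-like cells and 1.28 in endothelial-like cells. With 1 library per genotype the difference between classes was not tested.

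Class II UMIs also appeared outside the comparisons. In cKO barcodes of 1 to 100 UMIs, which are mostly not cells, the 7 genes stood at 1187 CPM (1153 to 1222), from 4652 of 3917906 UMIs. The deposited control matrix has no barcode that low, so there is no matching control value. Unnamed cluster 26 held 26112 CPM in cKO and 32837 CPM in control.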

How the results depend on the processing

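No paired analysis was possible because the genotypes share only replicate number 1. All values are log2 ratios of cKO over control for the 7-gene sum unless a gene is named, and the cause of a move was not tested. In border macrophage-like cells (-0.94) the sum was -1.05 with a 5% mitochondrial limit, -0.41 with class II genes among the variable genes and -0.58 thinned. It was -1.05 without the richest cell and -0.69 as a mean of per-cell CPM. At resolution 0.5 it was -0.36, where the class had the cell and UMI counts of the main class and cluster 26 together. Class II genes among the variable genes gave a larger class of 83 cKO and 142 control cells with 5297 and 10029 class II UMIs. The main class had 65 and 113 cells with 1654 and 4524 class II UMIs, so -0.41 is not a value for the same cells. Which cells joined the class was not traced. In microglia-like cells (-0.11) it was -0.19 with the 5% limit, 0.51 with class II genes among the variable genes, 0.29 thinned, 0.33 without the richest cell, 0.39 as a per-cell mean and -0.19 with unnamed microglia-marked clusters. In mural-like cells (5.59) it was 2.74 with a 2000 UMI floor, -0.28 with the 5% limit, 2.40 without cells with leukocyte transcripts and, in alternatives chosen after seeing the data, 7.81 in the smooth-muscle cluster alone, -0.60 in the pericyte cluster alone and 1.82 without cells with endothelial transcripts. In endothelial-like cells (1.28) it was 1.86 with the 2000 UMI floor, 1.81 with the 5% limit, 0.079 thinned, 0.72 without the richest cell, 0.072 as a per-cell mean and -0.60 without cells with leukocyte transcripts.

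Of 270 values of single genes, 243 kept the sign of the reported value and 27 had the other sign. Of these 27, 11 belong to ratios of at least 2-fold and are given here. With class II genes among the variable genes, microglia-like H2-Aa was 0.16, H2-Ab1 0.35 and Ciita 0.48. In that setting control H2-Aa had 61 UMIs in microglia-like and 1800 in border macrophage-like cells, where the main settings gave 301 and 798. The rise in border macrophage-like cells was larger than the fall in microglia-like cells. The unnamed clusters held 793 control H2-Aa UMIs at the main settings. At resolution 0.5, where the border macrophage-like class had the counts of an unnamed cluster added, it had 1544. Which cells made up the rise was not traced. Microglia-like H2-Ab1 was 0.20 thinned and 0.084 as a per-cell mean. Mural-like H2-Ab1 was -0.69 with the 5% limit and H2-DMa -1.43 in the pericyte cluster. Endothelial-like H2-Aa was -0.23 thinned and -1.03 without leukocyte transcripts, and H2-Ab1 was -0.035 as a per-cell mean and -1.18 without leukocyte transcripts. Of ratios under 2-fold, microglia-like Cd74 (-0.51) was 0.78 with class II genes among the variable genes, 0.27 thinned, 0.31 without the richest cell and 0.48 as a per-cell mean. Low counts limit Ciita in every class.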
